A study of Mus musculus with 6 samples.

Results

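The genes described here are 41 genes of the G2 and M phases of the cell cycle, from the cyclin-dependent kinase of mitotic entry to the proteins that split the dividing cell. They were taken by symbol from the arrays' probes, which were named through RefSeq transcripts, out of 22911 genes that could be named. All 41 had at least 1 probe, 65 probes in all, and the brightest probe stood for its gene. On each of the 6 arrays all 41 were well above background, so none was tested because of a high signal in 1 group alone.

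Expression was measured in C8D1A cells, a mouse astrocyte line that descends from 1 clone, on 6 one-colour Agilent arrays. The 3 control arrays hold RNA of untreated cells, and the 3 PRF arrays hold RNA of cells given pulsed radiofrequency, bursts of high-frequency current that are used against neuropathic pain. All cells had grown for 6 days in medium with 10% serum and had then spent 24 h in serum-free medium, and the groups came from 3 independent experiments. Neither the PRF settings nor the delay before extraction of RNA was stated in the labels.

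Of 56605 probes, 33670 to 34642 per control array and 35145 to 36191 per PRF array were well above background. Of 12 astrocyte markers, 10 were well above background on all 6 arrays, among them Gfap, S100b and Vim, whereas no probe of Slc1a3 or Gja1 was on any array. All 8 markers of the oligodendrocyte lineage, among them Olig1 and Sox10, were well above background on all 6 arrays as well.

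Entry into mitosis is driven by CDK1 bound to cyclins A and B, and CDC25 phosphatases remove the phosphates that hold this kinase inactive. The Polo-like and Aurora kinases then build the spindle, kinetochores tie chromosomes to its microtubules, and the spindle checkpoint holds back the anaphase-promoting complex (APC/C) until every chromosome is attached. RNAs of these proteins are made mainly late in the cell cycle under the control of the MuvB, B-MYB and FOXM1 factors, so their amount in a culture is widely read as a sign of how many cells divide.

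After PRF, 18 of the 41 genes fell and 0 rose (limma, adjusted p below 0.05). The falls were small. Ccnf was lower by 1.72-fold, Cdc25b by 1.43-fold, Plk1 by 1.40-fold and Kif20b by 1.39-fold. With an unadjusted p below 0.05 and a fall of at least 1.5-fold as the rule, Ccnf alone among the members was called, against 3.44% of all tested genes. Across all 15069 tested genes 13.4% were called lower and 16.4% higher, against 43.9% of the members lower. Among genes whose mean level lay within the members' own range, the share called lower was 15.1%.

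Levels are log2 signals relative to the 75th percentile of the same array, and changes are PRF minus control on that scale. The fitted change of every member was below 0, from -0.03 for Foxm1 to -0.78 for Ccnf, as it was for 51% of all tested genes. The median change was -0.23 over the members and -0.01 over all tested genes. In 35 of 41 members the 3 PRF arrays lay wholly below the 3 control arrays, which was the case for 25.4% of all tested genes. These were measurements on whole cultures, in which fewer dividing cells and less RNA in each dividing cell cannot be told apart.

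**Figure D1:**
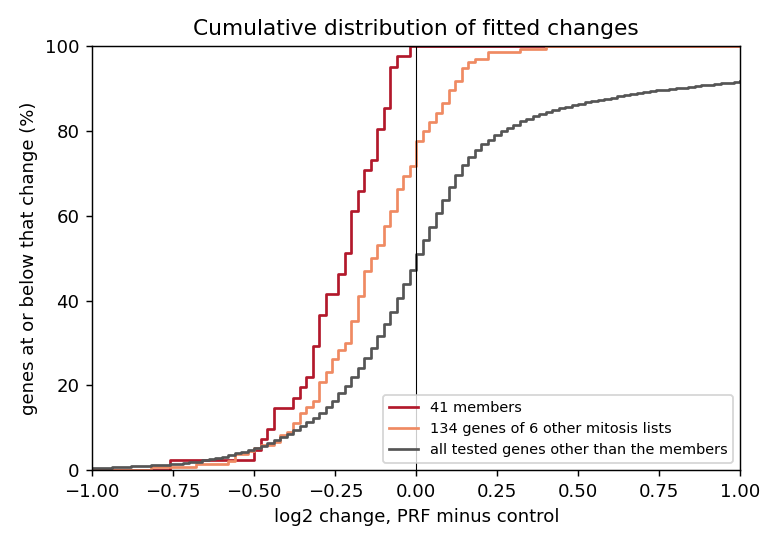
Cumulative share of genes (percent, vertical) at or below each fitted log2 change, PRF minus control (horizontal), for the 41 members, 134 genes of 6 other mitosis lists and all other tested genes. The curve of the members lies to the left of the other curves around its median of -0.23 and ends below 0, and the curve of all other genes has a long tail above 0.

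The scale on which arrays were compared moved all genes together. With no scaling the median of all tested genes was -0.15 and that of the members -0.37, and with spike-in scaling the medians were -0.20 and -0.43. Calls among all genes then shifted from 2025 lower and 2468 higher to 3069 and 1635 with no scaling, 5348 and 1779 with spike-in scaling, 2878 and 2112 with quantile normalization, and 2776 and 2212 with centring on the median of tested probes. Under these 4 scalings 26, 39, 25 and 24 members fell and 0 rose.

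Many calls were lost on leaving out any 1 array but PRF replicate 3, and each such fit rests on fewer arrays. The members' median change ran from -0.26 to -0.18 over the 6 fits. Without control replicate 1, 2 or 3 the number of members that fell was 11, 7 and 6, and without PRF replicate 1, 2 or 3 it was 6, 6 and 20. Among all genes the calls lower fell from 2025 to between 978 and 1984. The 1984 were found without PRF replicate 3, where the count of members went up from 18 to 20. Ccnf, Cdc25c, Plk1, Nuf2 and Kif20b passed in each of these 6 fits.

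The arrays share a slide, with control replicates 1 and 3 and PRF replicate 2 in its first row and the others in its second. With array row as a block 13 members fell, all of them among the 18, and 8.95% of all genes were called lower. Within row 1 the members' median was -0.21 and 40 of 41 fitted changes were below 0, and within row 2 the median was -0.26 with 40 of 41 below 0. The shares of all genes below 0 were 48.9% and 51.9%. Row 1 holds a single PRF array and row 2 a single control array, so the fit within a row has 1 residual degree of freedom and assumes that the lone array varies like the others. With so few arrays, 1 and 0 members were called there (0.982% and 0.00664% of all genes, with 11 and 0 members at an unadjusted p below 0.05).

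**Figure D2:**
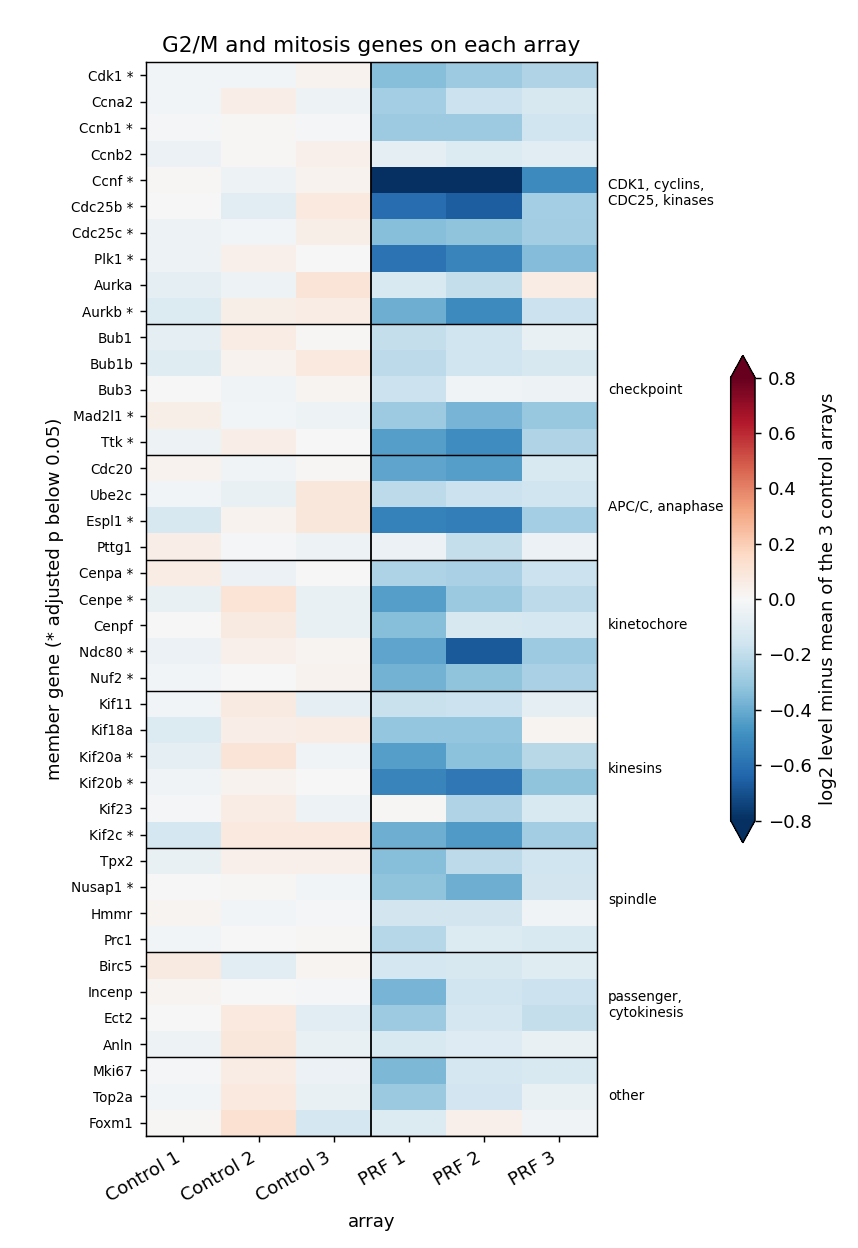
Log2 level of each member (rows, grouped by role) on each array (columns) minus the mean of the 3 control arrays, with blue below and red above that mean and stars at the 18 genes past the adjusted threshold. The median difference is -0.31 on PRF array 1, -0.24 on PRF array 2 and -0.16 on PRF array 3, and Ccnf is the darkest member on each of the 3 PRF arrays.

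PRF replicate 3 lay nearest to the controls. It held the highest of the 3 PRF values in 32 of the 41 members, and its median difference from the control mean was -0.16, against -0.31 and -0.24 for PRF replicates 1 and 2. The same order was seen in all genes called lower, whose median differences were -0.33, -0.50 and -0.45, and in 71.5% of which PRF replicate 3 was highest.

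By role, 7 of 10 genes of CDK1, its cyclins, the CDC25 phosphatases and the mitotic kinases fell, with a median change of -0.30. Of 5 kinetochore and centromere genes 4 fell (median -0.31), of 6 kinesin motors 3 (median -0.27), of 5 checkpoint genes 2 (median -0.17), of 4 genes of the APC/C and anaphase onset 1 (median -0.26) and of 4 spindle proteins 1 (median -0.19). None of the 4 genes grouped under the passenger complex and cytokinesis passed (median -0.16), and none of Mki67, Top2a and Foxm1 did (median -0.17). The groups are small, and differences between them were not tested.

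**Figure D3:**
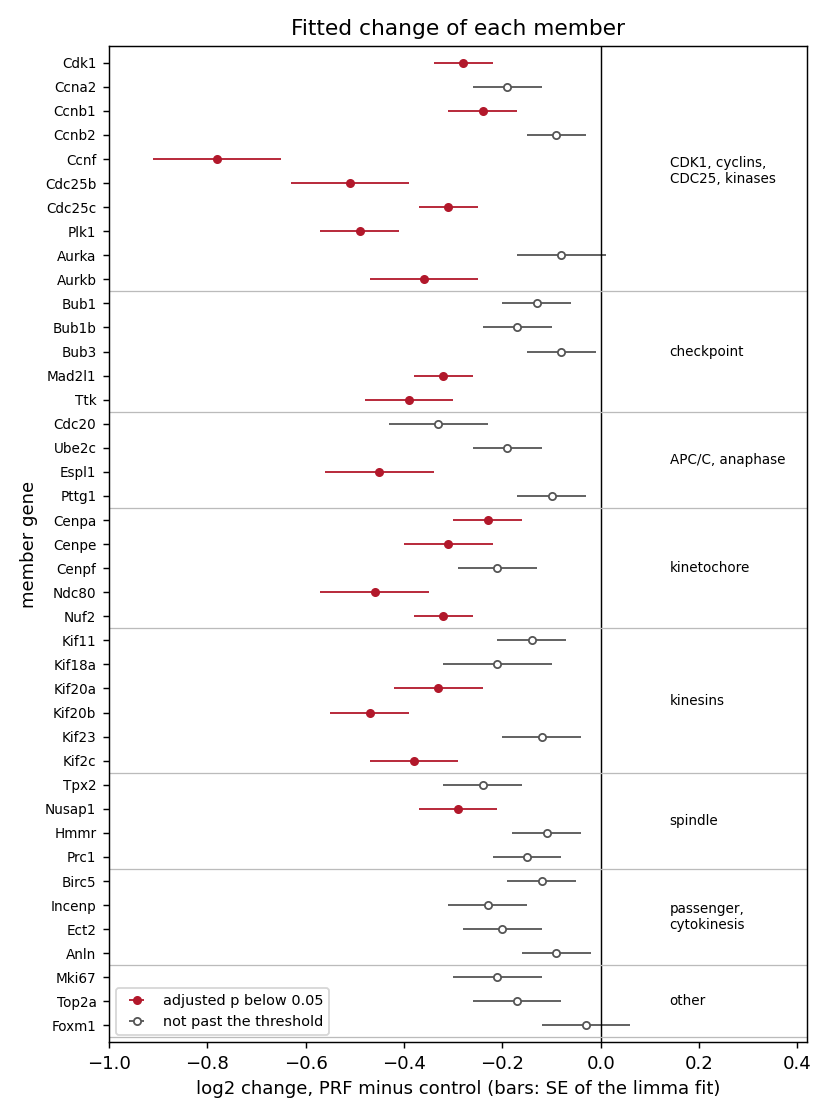
Fitted log2 change, PRF minus control (horizontal), of each member (vertical, grouped by role), with bars for the SE of the limma fit and filled points for the 18 genes past the adjusted threshold. Every point lies left of 0, from Ccnf at -0.78 to Foxm1 at -0.03.

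Cdk1 encodes the kinase of mitotic entry. It measured 3.07, 3.07 and 3.12 in control cells and 2.75, 2.80 and 2.85 in PRF cells. Each PRF value was below each control value, and the change of -0.28 (SE 0.06) passed the test (adjusted p = 0.0178). Ccnb1, cyclin B1, had levels of 3.38, 3.40 and 3.38 in control and 3.10, 3.10 and 3.23 in PRF cells, again with no overlap, and a change of -0.24 (SE 0.07, adjusted p = 0.0353). The second B-type cyclin gene, Ccnb2, changed by -0.09 (SE 0.06, adjusted p = 0.307). Ccna2, cyclin A2, ran from 4.31 to 4.40 in control and from 4.08 to 4.22 in PRF cells. These ranges do not overlap, but the change of -0.19 (SE 0.07) did not pass (adjusted p = 0.0890).

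Ccnf encodes cyclin F, an F-box protein that marks substrates for destruction and does not activate a CDK. Its levels were 4.17, 4.12 and 4.19 in control cells and 3.15, 3.34 and 3.65 in PRF cells. The control arrays lay close together and the PRF arrays were spread over 0.25 (SD), all far below them. The change of -0.78 (SE 0.13) was the largest of the 41 (adjusted p = 0.00654).

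The members include 2 CDC25 genes, Cdc25b and Cdc25c, which fell. Cdc25c stood at 2.18, 2.20 and 2.27 in control and 1.88, 1.90 and 1.94 in PRF cells, with a change of -0.31 (SE 0.06, adjusted p = 0.0126). Cdc25b stood at 0.51, 0.42 and 0.59 in control and -0.10, -0.15 and 0.24 in PRF cells, with a change of -0.51 (SE 0.12, adjusted p = 0.0204). Its PRF replicate 3 was nearer to the controls than the other PRF arrays were, and with its tested probes averaged the change was -0.24 (adjusted p = 0.128).

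Plk1, the Polo-like kinase of mitotic entry and spindle assembly, measured 4.52, 4.60 and 4.56 in control and 3.97, 4.03 and 4.21 in PRF cells, a change of -0.49 (SE 0.08, adjusted p = 0.00681). Aurkb, the kinase of the chromosomal passenger complex, measured 2.68, 2.84 and 2.85 in control and 2.40, 2.28 and 2.62 in PRF cells, a change of -0.36 (SE 0.11, adjusted p = 0.0469). In neither gene did the groups overlap. Aurka, the centrosomal Aurora kinase, had overlapping levels of 3.99, 4.02 and 4.16 in control and 3.94, 3.87 and 4.12 in PRF cells, and its change of -0.08 (SE 0.09) did not pass (adjusted p = 0.537).

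In this group the calls of Ccnb1 and Aurkb ended on leaving out any array but PRF replicate 3, at an adjusted p of 0.0840 to 0.111 and of 0.0608 to 0.132. That of Cdk1 ended (0.0538 to 0.0597) on leaving out either of control replicates 2 and 3 or of PRF replicates 1 and 2, that of Cdc25b (0.0572 to 0.0688) on leaving out either of control replicates 1 and 3 or of PRF replicates 1 and 2, and that of Ccnb1 with array row as a block (0.0599).

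RefSeq (GRCm38.p6) gave a 300-base promoter window, 250 bases before and 50 after a transcript start, for 34 of the 41 genes. None was used for Aurkb, Ccna2, Cdc25c, Foxm1, Incenp, Kif20a and Tpx2. The windows were searched on both strands for the cell cycle homology region (CHR, here TTTGAA or TTCGAA), the element that the MuvB complexes are known to bind, and for the CCAAT box, the element of the NF-Y factor. Stretches of 180 bases, 150 before and 30 after the start, are shown 5′ to 3′ on the gene's strand for 5 genes that fell and for Ube2c, which did not pass, since they show both the usual pair of words and a gene without it. Capitals mark a CHR or CCAAT word on either strand, so that TTCAAA and ATTGG stand for words on the other strand. The stretches lie at chr17:24251380-24251559 (minus strand, Ccnf), chr10:69352883-69353062 (minus, Cdk1), chr15:102296143-102296322 (plus, Espl1), chr5:30666736-30666915 (plus, Cenpa), chr6:66535071-66535250 (plus, Mad2l1) and chr2:164769779-164769958 (plus, Ube2c).
Ccnf: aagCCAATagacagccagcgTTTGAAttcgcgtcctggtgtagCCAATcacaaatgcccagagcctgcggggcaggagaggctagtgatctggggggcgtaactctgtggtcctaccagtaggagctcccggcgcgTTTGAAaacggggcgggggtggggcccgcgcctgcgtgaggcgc
Cdk1: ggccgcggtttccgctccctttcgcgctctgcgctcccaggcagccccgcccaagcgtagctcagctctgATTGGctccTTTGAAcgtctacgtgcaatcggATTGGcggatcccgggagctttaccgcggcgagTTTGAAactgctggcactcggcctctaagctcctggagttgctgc
Espl1: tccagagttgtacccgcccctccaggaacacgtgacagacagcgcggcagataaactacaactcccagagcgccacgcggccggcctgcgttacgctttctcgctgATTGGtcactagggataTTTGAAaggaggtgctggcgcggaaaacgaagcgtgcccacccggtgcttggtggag
Cenpa: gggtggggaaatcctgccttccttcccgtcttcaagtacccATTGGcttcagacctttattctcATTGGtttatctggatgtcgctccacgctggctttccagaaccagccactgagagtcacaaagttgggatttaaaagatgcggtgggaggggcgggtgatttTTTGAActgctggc
Mad2l1: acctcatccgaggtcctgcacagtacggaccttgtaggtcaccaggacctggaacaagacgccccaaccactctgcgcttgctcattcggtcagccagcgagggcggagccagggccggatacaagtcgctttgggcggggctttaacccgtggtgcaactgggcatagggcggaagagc
Ube2c: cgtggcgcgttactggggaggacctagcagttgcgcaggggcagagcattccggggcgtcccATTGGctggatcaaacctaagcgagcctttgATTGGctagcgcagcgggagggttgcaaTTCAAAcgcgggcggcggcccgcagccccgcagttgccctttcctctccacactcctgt

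A CHR word was present in the windows of 26 of 34 members (76.5%) and in 21.7% of all 27025 genes with a window, a CCAAT word in 24 (70.6%) and in 41.1%, and both in 22 (64.7%) and in 8.61%. In Cdk1 the CHR words begin at positions -71 and -15 from the start, in Ccnf at -130 and -14, in Espl1 at -27 and in Cenpa at 17. Mad2l1, which fell, held neither word in its window. Among members that fell, 10 of 15 windows held a CHR word and 7 both words, and among the others 16 of 19 and 15 did. An E2F-type word (TTTCGCGC, TTTGGCGC or TTCCCGCC) was found in 2 members (5.88%), Cdk1 and Kif18a, and in 3.39% of all genes. A match describes these letters and shows no binding.

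Of the checkpoint genes, Mad2l1 and Ttk fell. Mad2l1 encodes a protein that inhibits the APC/C while kinetochores are unattached. It measured 3.71, 3.64 and 3.62 in control and 3.37, 3.29 and 3.36 in PRF cells (change -0.32, SE 0.06, adjusted p = 0.0126). Ttk, the kinase that starts checkpoint signalling, measured 0.69, 0.78 and 0.73 in control and 0.29, 0.23 and 0.49 in PRF cells (change -0.39, SE 0.09, adjusted p = 0.0174). Every PRF value of both genes lay below every control value. Bub1, a checkpoint kinase at the kinetochore, had levels of 2.26, 2.40 and 2.35 against 2.15, 2.18 and 2.28, which overlap, and Bub1b, which encodes BubR1, 1.30, 1.43 and 1.48 against 1.19, 1.24 and 1.27, which do not. Neither passed (adjusted p = 0.209 and 0.133), nor did Bub3, their binding partner, with a change of -0.08 (SE 0.07, adjusted p = 0.437). The call of Mad2l1 ended without PRF replicate 2 (adjusted p = 0.0513), and that of Ttk (0.0533 to 0.0628) on leaving out either of control replicates 2 and 3 or of PRF replicates 1 and 2.

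Espl1 encodes separase, the protease that cuts cohesin at anaphase. It measured 2.49, 2.65 and 2.71 in control and 2.08, 2.07 and 2.35 in PRF cells, without overlap, and fell by 0.45 (change -0.45, SE 0.11, adjusted p = 0.0227). Pttg1, the gene of its inhibitor securin, changed by -0.10 on its brightest probe (SE 0.07, adjusted p = 0.338). Cdc20, which activates the APC/C, measured 4.31, 4.25 and 4.29 in control and 3.86, 3.84 and 4.16 in PRF cells. All PRF values were lower, yet the change of -0.33 (SE 0.10) just missed the threshold (adjusted p = 0.0507), and without PRF replicate 3 it passed (adjusted p = 0.00831). Ube2c, the ubiquitin-conjugating enzyme of the APC/C, measured 3.94, 3.90 and 4.05 against 3.75, 3.79 and 3.80 (change -0.19, SE 0.07, adjusted p = 0.0833). The call of Espl1 ended, at an adjusted p of 0.0712 to 0.0773, on leaving out either of control replicates 2 and 3 or of PRF replicates 1 and 2.

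At the kinetochore, the partners Ndc80 and Nuf2, which form the microtubule-binding arm of the NDC80 complex, both fell. Nuf2 measured 3.34, 3.36 and 3.39 in control and 2.98, 3.04 and 3.10 in PRF cells (change -0.32, SE 0.06, adjusted p = 0.0125). Ndc80 measured 0.69, 0.78 and 0.76 in control and 0.32, 0.07 and 0.45 in PRF cells (change -0.46, SE 0.11, adjusted p = 0.0210). The PRF arrays were tight for Nuf2 and spread for Ndc80, and in both genes they lay below all controls.

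Cenpa, the histone H3 variant that marks the centromere, measured 3.07, 2.96 and 3.01 in control and 2.76, 2.75 and 2.84 in PRF cells (change -0.23, SE 0.07, adjusted p = 0.0408). Cenpe, a kinesin of the kinetochore that moves chromosomes to the spindle equator, measured 3.03, 3.20 and 3.03 against 2.65, 2.79 and 2.88 (change -0.31, SE 0.09, adjusted p = 0.0390). Both were lower on every PRF array than on any control array. Cenpf, a large kinetochore protein, changed by -0.21 (SE 0.08) and did not pass (adjusted p = 0.108). The calls of Cenpa and Cenpe ended on leaving out any array but PRF replicate 3, at an adjusted p of 0.0722 to 0.123 and of 0.0724 to 0.117, and with array row as a block (0.0874 and 0.0611). That of Ndc80 ended (0.0526 to 0.0700) on leaving out either of control replicates 2 and 3 or PRF replicate 1.

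Among the motors, Kif20b, a kinesin that acts in cytokinesis, measured 2.80, 2.86 and 2.83 in control and 2.30, 2.26 and 2.51 in PRF cells (change -0.47, SE 0.08, adjusted p = 0.00844). Kif20a, which carries the passenger complex to the spindle midzone, measured 3.01, 3.19 and 3.06 against 2.65, 2.76 and 2.87 (change -0.33, SE 0.09, adjusted p = 0.0319). Kif2c, which takes microtubules apart at the centromere, measured -0.49, -0.27 and -0.27 against -0.74, -0.80 and -0.63 (change -0.38, SE 0.09, adjusted p = 0.0233). In all 3 genes the PRF arrays lay below the control arrays. Kif11, the motor that pushes the spindle poles apart, measured 1.27, 1.36 and 1.22 against 1.11, 1.12 and 1.22, so that its lowest control and highest PRF values are equal at this rounding (change -0.14, SE 0.07, adjusted p = 0.183).

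Kif18a, which dampens chromosome movements, and Kif23, a motor of the central spindle, had overlapping groups and changes of -0.21 (SE 0.11) and -0.12 (SE 0.08), with adjusted p = 0.212 and 0.331. Kif18a passed without PRF replicate 3 (adjusted p = 0.0435). The call of Kif20a ended on leaving out any array but PRF replicate 3, at an adjusted p of 0.0540 to 0.0999, and with array row as a block (0.0508). That of Kif2c ended (0.0676 to 0.0800) on leaving out either of control replicates 2 and 3 or of PRF replicates 1 and 2.

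Of the spindle proteins Nusap1, which bundles spindle microtubules, fell. It measured 2.73, 2.74 and 2.71 in control and 2.41, 2.34 and 2.58 in PRF cells (change -0.29, SE 0.08, adjusted p = 0.0370). Its call ended on leaving out any array but PRF replicate 3, at an adjusted p of 0.0873 to 0.112, and with array row as a block (0.0509). Tpx2, which activates Aurora A on the spindle, changed by -0.24 (SE 0.08) and narrowly missed the threshold (adjusted p = 0.0523). Prc1, which cross-links the microtubules of the central spindle, changed by -0.15 (SE 0.07, adjusted p = 0.137) and Hmmr, a spindle and hyaluronan-binding protein, by -0.11 on its brightest probe (SE 0.07, adjusted p = 0.261). None of these 3 had overlapping groups.

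None of the 4 genes grouped under the passenger complex and cytokinesis passed the test. Aurkb, of the passenger complex, and Kif20b, which acts in cytokinesis, were counted with the kinases and the motors, and both fell. Birc5, which encodes survivin, measured 5.71, 5.55 and 5.66 in control and 5.50, 5.51 and 5.54 in PRF cells (change -0.12, SE 0.07, adjusted p = 0.217). Incenp, the scaffold of the same complex as Aurkb, changed by -0.23 (SE 0.08, adjusted p = 0.0671). Ect2, which activates RhoA at the cleavage furrow, changed by -0.20 (SE 0.08, adjusted p = 0.0948), and Anln, the furrow protein anillin, by -0.09 (SE 0.07, adjusted p = 0.352). All 4 changes were below 0 and none passed, which does not show that these genes were unchanged.

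The usual markers of dividing cells stayed short of the threshold in the setting reported. Mki67, the gene of the Ki-67 antigen, measured 5.09, 5.16 and 5.05 in control and 4.74, 4.96 and 4.98 in PRF cells (change -0.21, SE 0.09, adjusted p = 0.122). Top2a, the topoisomerase that untangles sister chromatids, measured 4.60, 4.70 and 4.56 against 4.32, 4.47 and 4.56 (change -0.17, SE 0.09, adjusted p = 0.188). PRF replicate 1 was the lowest array for both genes. Their groups did not overlap, though for Top2a the lowest control and highest PRF values are equal at this rounding. Mki67 passed with quantile normalization (adjusted p = 0.0382), no scaling (0.0391) and spike-in scaling (0.0185). It did not pass with centring on the median of tested probes (0.0681). Top2a passed with spike-in scaling (0.0258) but not with the other scalings (0.0614 to 0.103). Foxm1, a transcription factor of many genes described here, measured 3.06, 3.17 and 2.91 in control and 2.94, 3.09 and 3.02 in PRF cells, with overlapping groups and a change of -0.03 (SE 0.09, adjusted p = 0.846). Its fitted change was of the opposite sign without control replicate 2 (0.03), without PRF replicate 1 (0.01) and within array row 1 (0.11).

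A further 24 probes represented 21 of the 41 genes, and 23 of them were tested. Of these 6 fell, 2 rose and 19 had changes below 0. The untested probe was the second of Ccnf, well above background on 2 of 3 control and 1 of 3 PRF arrays. The fall of Ccnf thus rests on 1 tested probe. Of all 34838 tested probes 4402 (12.6%) were called lower and 6436 higher, and 51% of all tested genes had a change below 0. The second probes of Ccna2 (change -0.34, SE 0.08, adjusted p = 0.0185) and Cdc20 (-0.37, SE 0.09, adjusted p = 0.0289) passed, although the brightest probes of these genes had not, as did those of Incenp (-0.25, SE 0.07, adjusted p = 0.0472) and Kif23 (-0.23, SE 0.07, adjusted p = 0.0395). Aurkb (-0.46, SE 0.10, adjusted p = 0.0150) and Ccnb1 (-0.39, SE 0.07, adjusted p = 0.00635) fell on a second probe too. Other further probes of genes that fell had changes below 0 but did not pass. These were probes of Kif20b (-0.32, adjusted p = 0.0519), Ttk (-0.27 and -0.27, adjusted p = 0.0506 and 0.0617) and Mad2l1 (-0.21, adjusted p = 0.0694). The same held for Kif2c (-0.23, adjusted p = 0.101) and the third probe of Ccnb1 (-0.29, adjusted p = 0.0628). Cdc25b is described below.

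In 4 genes a dimmer probe had a change of the opposite sign to the brightest one, and in 2 of them, Pttg1 and Hmmr, that probe was called higher. A dimmer probe of Pttg1 rose from -1.45 to -0.48 (group means, change 0.97, SE 0.14, adjusted p = 0.00382), and a dimmer probe of Hmmr rose from -0.62 to 0.12 (change 0.74, SE 0.11, adjusted p = 0.00452), each with no overlap between groups. The third probe of Hmmr changed by -0.05 (SE 0.13, adjusted p = 0.817). The second probe of Cdc25b changed by 0.02 (SE 0.12, adjusted p = 0.897), so its fall rests on 1 of 2 probes, and that of Anln by 0.29 (SE 0.27, adjusted p = 0.442). With all tested probes of a gene averaged, 21 members fell and Pttg1 and Hmmr were called higher (changes 0.44 and 0.20, adjusted p = 0.0128 and 0.0301).

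Other genes of mitosis were taken from 6 lists drawn up for this comparison. Of their 134 tested genes 27 fell and 2 rose (20.1% and 1.49%), with a median change of -0.14. Falls were most frequent among spindle, centrosome and cytokinesis genes (9 of 35, with 1 rise), other kinetochore and centromere genes (8 of 32), other kinesins and dynein-linked genes (2 of 9) and CDK1 regulators and other mitotic kinases (4 of 19). The median changes of these lists were, in that order, -0.19, -0.16, -0.29 and -0.03, against -0.01 over all tested genes. Among the CDK1 regulators and other mitotic kinases 11 of 19 changes were below 0. Condensin and cohesin genes had 3 falls in 20, near the share of all genes, and parts and regulators of the APC/C had 1 fall and 1 rise in 19.

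The largest fall in these lists was that of Sapcd2, a gene linked to spindle orientation, from 3.49 ± 0.04 to 2.65 ± 0.23 (SD, n = 3, change -0.83, SE 0.12, adjusted p = 0.00396). Depdc1b was 1.61-fold and Psrc1, a spindle protein, 1.49-fold lower. Knl1, the kinetochore scaffold to which BUB1 and BUBR1 bind, fell from 1.98 ± 0.14 to 1.38 ± 0.11 (SD, n = 3, change -0.59, SE 0.10, adjusted p = 0.00641). Oip5 and Cenpo, both centromere proteins, were 1.42-fold and 1.36-fold lower, and Kif22, a chromosome-arm kinesin, and Nde1, a dynein regulator, 1.45-fold and 1.32-fold.

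Haspin, the histone H3 kinase that recruits the passenger complex, fell from 0.93 ± 0.02 to 0.36 ± 0.12 (SD, n = 3, change -0.57, SE 0.08, adjusted p = 0.00366). Bora, an activator of PLK1, was 1.28-fold and the kinase Melk 1.24-fold lower. Sgo2a, a shugoshin, and the condensin genes Ncapd3 and Ncapg were 1.30-fold, 1.24-fold and 1.21-fold lower, and Trip13, which disassembles the checkpoint complex, 1.24-fold. Cdc14a, a phosphatase, rose 1.32-fold and Ube2s, an E2 enzyme of the APC/C, 1.15-fold. Their changes of 0.40 and 0.20 were 0.26 and 0.06 with no scaling and 0.20 and 0.01 with spike-in scaling. Cdc25a changed by -0.08 (SE 0.07, adjusted p = 0.437), and Wee1, the kinase that opposes CDC25, by 0.31 with a wide spread (SE 0.21, adjusted p = 0.315).

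Of the genes named in these lists, Bora and Ube2s lost their call whichever array was left out, at an adjusted p of 0.0630 to 0.139 and of 0.0862 to 0.139. Psrc1 and Ncapg lost it on leaving out any array but PRF replicate 3 (0.0760 to 0.122 and 0.0576 to 0.0827). Trip13, Sgo2a and Melk lost it on leaving out either of control replicates 2 and 3 or PRF replicate 2 (0.0541 to 0.0713, 0.0543 to 0.0600 and 0.0737 to 0.0767), and Ncapd3 on leaving out these or PRF replicate 1 (0.0515 to 0.0741). Cdc14a lost it on leaving out either of control replicates 1 and 3 or of PRF replicates 1 and 3 (0.0653 to 0.0875), and Nde1 on leaving out PRF replicate 2 (0.0539). Sapcd2, Depdc1b, Knl1, Oip5, Cenpo, Kif22 and Haspin passed in each of the 6 fits.

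**Figure D4:**
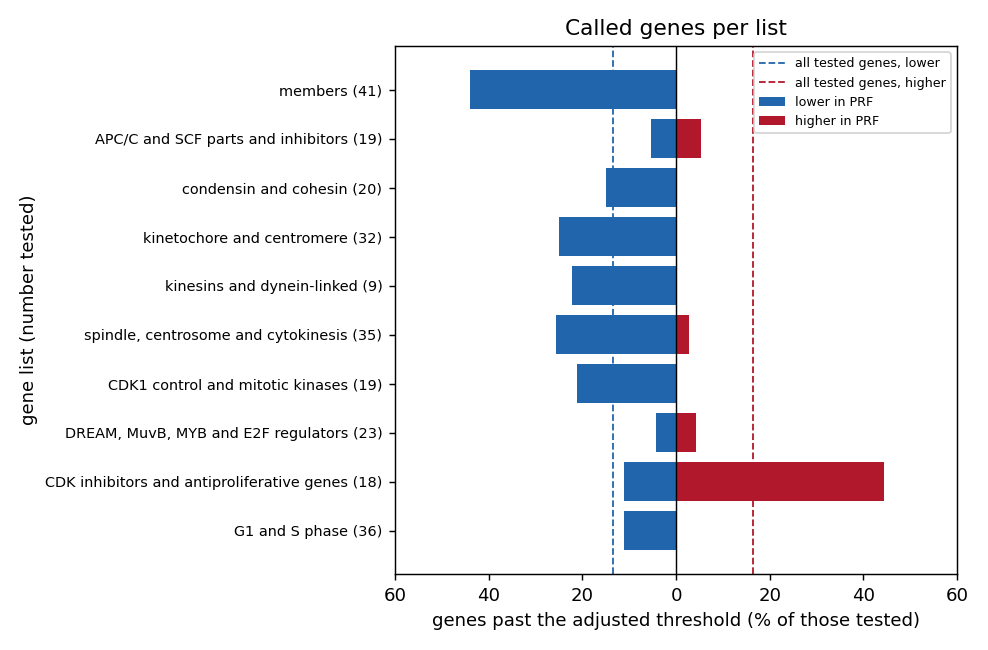
Percent of tested genes past the adjusted threshold (horizontal), lower in PRF to the left and higher to the right, for the 41 members and 9 other lists (vertical, number tested in brackets), with dashed lines at the shares of all tested genes, 13.4% lower and 16.4% higher. The members have the longest bar to the left and the list of CDK inhibitors and antiproliferative genes the longest bar to the right. The list labelled APC/C and SCF holds parts and regulators of the APC/C and no core part of the SCF.

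Among the factors that control the transcription of these genes, 1 of 23 fell and 1 rose. Mybl2, which encodes B-MYB, fell from 3.40 ± 0.03 to 3.02 ± 0.19 (SD, n = 3, change -0.38, SE 0.11, adjusted p = 0.0372), a call that ended on leaving out any array but PRF replicate 3 (0.0689 to 0.101). E2f3 was 1.24-fold higher, with a change of 0.31 that was 0.17 with no scaling and 0.11 with spike-in scaling (adjusted p = 0.0171, but 0.0513 to 0.0591 on leaving out either of control replicates 2 and 3 or PRF replicate 1). E2f1 changed by -0.02 (SE 0.06, adjusted p = 0.823).

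Of 18 inhibitors of CDKs and antiproliferative genes, 8 rose and 2 fell (44.4% and 11.1%, against 16.4% and 13.4% of all tested genes), with a median change of 0.31. Cdkn1a, which encodes the CDK inhibitor p21, rose 1.33-fold from 3.50 ± 0.03 to 3.91 ± 0.16 (SD, n = 3, adjusted p = 0.0200, but 0.0501 to 0.0648 on leaving out any array but PRF replicate 1). Gadd45g and Gadd45b, stress-induced genes whose products can inhibit CDK1, rose 1.62-fold and 1.45-fold (adjusted p = 0.00129 and 0.0173, the latter 0.0501 to 0.0545 on leaving out either of control replicates 2 and 3 or PRF replicate 2). Cdkn1c, the gene of p57, lay below the detection limit of all control arrays (not well above background) and rose at least 2.54-fold (adjusted p = 8.2e-05), a bound against the dimmest signal called well above background. It was tested only because its PRF signal was high, and with normexp background correction its change was 0.49, less than that bound. The changes of Cdkn1a and Gadd45b, 0.41 and 0.53, were 0.22 and 0.34 with spike-in scaling. Cdkn1b, the gene of p27, changed by 0.22 (SE 0.08, adjusted p = 0.0832). Cdkn2c and Cdkn2d, inhibitors of CDK4 and CDK6, were 1.22-fold and 1.18-fold lower, and both calls ended on leaving out any array but PRF replicate 3, at an adjusted p of 0.0838 to 0.134 and of 0.0701 to 0.0941.

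Genes of G1 and S phase had 4 falls and 0 rises in 36 (11.1%, with a median change of -0.05), close to the share of all genes. Tk1, the thymidine kinase of S phase, was 1.53-fold, Ccne1, cyclin E1, 1.32-fold and Gmnn, the replication inhibitor geminin, 1.20-fold lower. The call of Gmnn ended (0.0658 to 0.0754) on leaving out either of control replicates 1 and 3 or of PRF replicates 1 and 2. Ccnd1, cyclin D1, averaged 7.36 ± 0.09 over the control arrays and 7.36 ± 0.05 over the PRF arrays (SD, n = 3, with an adjusted p of 0.959), and the sign of its change differed between scalings. The difference between this list and the mitotic genes was not tested.

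Some markers of other cell types rose with PRF, against 16.4% of all tested genes. Of 6 tested fibroblast markers 4 rose and 0 fell (Col1a1, Col3a1, Col1a2 and Fap). Col1a2 and Fap were tested only through the PRF group, being well above background on 1 and 2 of 3 control arrays. Pdgfra changed by -0.67 without overlap but did not pass (SE 0.23, adjusted p = 0.071). It was tested only through the control group, being well above background on 1 of 3 PRF arrays. Dcn changed by 0.34 (SE 0.26, adjusted p = 0.365). The summed signal of all 8, in units of the array's 75th percentile, ran from 1.17 to 1.35 in control and from 1.83 to 2.0 in PRF cells. Lum and Thy1 were not above background on any array. The microglial sum ran from 8.92 to 9.32 in control and from 13.3 to 17.9 in PRF cells, with 1 of 4 tested markers higher (Itgam). Aif1, Cx3cr1 and P2ry12 were not above background. Itgam, with log2 group means of 3.07 in control and 3.92 in PRF cells, made up most of this sum. Tmem119 changed by -0.25 without overlap (SE 0.08, adjusted p = 0.0598). Csf1r changed by 0.16 (SE 0.08, adjusted p = 0.182) and C1qb by 0.23 (SE 0.14, adjusted p = 0.239). The endothelial sum ran from 0.439 to 0.485 and from 0.542 to 0.588, with 1 of 3 tested markers higher (Kdr, tested only through the PRF group and above background on 0 of 3 control arrays) and Cdh5 and Cldn5 not above background. Neuronal markers summed to between 23.7 and 26.7 in control and between 24.7 and 29.2 in PRF cells, which overlap, with 1 of 5 tested markers higher. The oligodendrocyte sum ran from 166 to 172 and from 149.5 to 164, with 2 of 8 lower and 1 higher, and the astrocyte sum from 208 to 221 and from 224 to 229, with 1 of 10 higher. Their part in the fall of the mitotic genes was not tested.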

How the data were processed

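RNA of 3 control and 3 PRF cultures was labelled with Cy3 and measured on 1 slide of one-colour arrays. Per the file headers, the deposited intensity values were made with Agilent Feature Extraction 10.7.3.1 and are background-corrected processed signals per spot, with no normalization between arrays. The authors' series table equalled them within a relative tolerance of 0.0001 for at least 99.98% of probes. The sources used here do not state how the authors normalized or tested the arrays. The array design names an older mouse build (mm9), so promoters alone carry coordinates, those of GRCm38.p6 in RefSeq.

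Processed signals were put on the log2 scale, outlier and control spots were left out, spots of a probe were averaged and each array's 75th percentile was subtracted. Of 56605 probes 32994 received 1 symbol from RefSeq transcripts. A probe was tested where every array of the control or of the PRF group had it well above background. These 34838 probes were fitted with limma 3.58.1 (R 4.3.3) on group alone, with Benjamini-Hochberg adjustment over the whole set. A gene was called at an adjusted p below 0.05 on its brightest tested probe, which gave 15069 genes. The fitting code was tested on simulated data.

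Members, lists, tests and the choice of genes to name were made with earlier results of these data known. Array values were given for each member that passed and for 19 fixed members, and up to 3 genes in each direction for every other list, plus 7 fixed regulators. The promoters shown were chosen after values were seen. Control and PRF replicates share numbers. Deviations from the group means correlated at 0.145, -0.0838 and 0.0458 between same-numbered arrays, so the numbers were not taken as pairs. The p-values measure the spread between 3 cultures per group, and that number limits the precision.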

Additional observations from a re-analysis of the deposited data

How the results depend on the processing

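The fall of the members kept its direction in all alternatives at the level of the median, which ran from -0.43 to -0.18. Without scaling it was -0.37, and scaled on spike-ins -0.43, where all genes moved down too. Of the counts, 18 members fell in the setting reported. With spike-in scaling 39 fell, without a filter on dim probes 10, within array row 1 and row 2 1 and 0, and at an unadjusted p below 0.05 with at least a 1.5-fold change 1. Leaving out 1 array gave between 6 and 20. No member rose, except 2 with the mean of all tested probes. Genes called lower numbered 2025, against 3069 without scaling, 5348 when scaled on spike-ins, 1247 without a filter, 1348 with array row as a block, 148 and 1 within rows 1 and 2, 518 at the plain threshold and between 978 and 1984 with 1 array left out. Genes called higher numbered 2468, against 1635 without scaling and 1092 and 80 within rows 1 and 2. With the replicate number as a block, 13 members and 1646 genes were called lower and 2220 genes higher, and Aurkb (0.0612), Ccnb1 (0.0743), Cenpa (0.0777), Cenpe (0.0610) and Nusap1 (0.0718) missed the adjusted threshold. Signs turned for Anln with averaged probes (0.10), for Aurka within row 2 (0.01), for Pttg1 and Hmmr with averaged probes (0.44 and 0.20), and for Foxm1 within row 1 (0.11), without control replicate 2 (0.03) and without PRF replicate 1 (0.01), in a range of -0.09 to 0.03 over single arrays left out. Over all single-member values under the alternatives, 608 kept sign and side of the threshold, 108 missed a threshold passed before and 56 passed one missed before. The causes of these shifts were not tested. A block for slide or scan was not run because all arrays share both, and the normexp alternative used the median signal.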
